A study of Mus musculus with 12 samples.

Results

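Expression of 9 genes of regulated cell death (Mlkl, Ripk3, Zbp1, Casp1, Casp4, Casp8, Tnfsf10, Fas and Bak1) was examined among 19935 genes measured in CD71-enriched mouse bone marrow cells. The genes were chosen by name, as probe sets that carry 1 of these 9 symbols and no other. The names were listed with earlier results of these data known, so their counts beside shares of all genes are descriptions. Each of the 9 was measured by 1 probe set, a group of array probes for 1 transcript. CD71, the transferrin receptor, is abundant on red cell precursors, and the cells were enriched with an antibody and magnetic beads, so other marrow cells can remain among them. The 12 arrays came from 12 male mice of the C57BL/6J strain aged 10 to 12 weeks, with 3 mice in each of 4 genotypes. CD70TG*Ifng-/- mice carry a CD70 transgene and lack the interferon-gamma gene Ifng. CD70TG mice (clone F13 in the labels) carry the transgene with Ifng intact. Ifng-/- mice lack Ifng and carry no transgene, and WT mice have neither change. CD70 is the ligand of the costimulatory receptor CD27 on T cells. CD70 transgenic mice of this kind are known for CD70 expression on B cells and for activated T cells that make interferon-gamma, although the labels name neither the promoter nor the cells that express the transgene. The design asks what the transgene does to the marrow cells with Ifng (CD70TG against WT) and without it (CD70TG*Ifng-/- against Ifng-/-), and what loss of Ifng does in each setting.

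Interferon-gamma is known to raise transcription through factors such as IRF1, and several sensors and effectors of cell death are among the genes that interferons are known to induce. Apoptosis runs through death receptors such as FAS, which recruit and activate caspase-8, or through the mitochondrial outer membrane, where BAK forms pores. Necroptosis is a lytic death in which a sensor such as ZBP1 engages the kinase RIPK3, and RIPK3 phosphorylates MLKL, which breaks the plasma membrane. Caspase-8 is also known as a brake on necroptosis. Pyroptosis is another lytic death, in which caspase-1 or, in mice, the caspase-11 encoded by Casp4 cleaves gasdermin D into a pore-forming fragment. Most of these proteins are controlled by cleavage, phosphorylation or assembly, which RNA levels do not measure.

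The promoters of the genes that rose together are shown first, with that of Fas, which did not pass in any comparison and was the 1 promoter with a GAS match. Sequences are RefSeq's for build GRCm38.p6, 300 bases each, from 250 bases before to 50 bases after the start of the gene, and the table used held promoters of 8 of the 9 genes (all but Zbp1). Capitals mark matches to 3 motifs searched on each strand: the interferon-gamma activated site GAS (TTCNNNGAA), the core of the interferon-stimulated response element (GAAA, any 2 bases, GAAA) and a shorter core bound by interferon regulatory factors (AANNGAAA), which the response element contains.
Mlkl, chr8:111338156-111338455, minus strand: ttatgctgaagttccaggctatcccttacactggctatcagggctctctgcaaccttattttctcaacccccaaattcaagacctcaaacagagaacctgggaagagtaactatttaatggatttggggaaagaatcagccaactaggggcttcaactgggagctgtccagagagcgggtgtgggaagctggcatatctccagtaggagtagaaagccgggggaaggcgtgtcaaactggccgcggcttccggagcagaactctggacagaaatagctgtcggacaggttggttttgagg
Casp8, chr1:58802252-58802551, plus strand: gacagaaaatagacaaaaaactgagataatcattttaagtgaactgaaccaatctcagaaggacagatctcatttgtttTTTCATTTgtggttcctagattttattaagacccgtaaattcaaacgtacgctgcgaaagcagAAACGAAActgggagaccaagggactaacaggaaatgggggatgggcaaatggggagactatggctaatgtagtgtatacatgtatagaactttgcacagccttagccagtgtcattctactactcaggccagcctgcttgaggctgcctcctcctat
Tnfsf10, chr3:27316827-27317126, plus strand: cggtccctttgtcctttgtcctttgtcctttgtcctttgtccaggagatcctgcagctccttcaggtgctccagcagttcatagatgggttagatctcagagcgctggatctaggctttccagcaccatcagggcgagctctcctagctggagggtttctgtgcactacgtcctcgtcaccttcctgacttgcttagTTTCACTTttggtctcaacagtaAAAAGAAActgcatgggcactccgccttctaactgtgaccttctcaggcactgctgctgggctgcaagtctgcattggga
Bak1, chr17:27028578-27028877, minus strand: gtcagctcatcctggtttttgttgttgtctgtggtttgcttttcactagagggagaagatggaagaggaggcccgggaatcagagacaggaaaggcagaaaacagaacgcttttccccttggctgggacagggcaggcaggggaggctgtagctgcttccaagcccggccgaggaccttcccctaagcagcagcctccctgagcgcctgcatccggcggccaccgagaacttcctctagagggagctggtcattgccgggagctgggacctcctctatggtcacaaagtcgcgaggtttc
Fas, chr19:34290409-34290708, plus strand: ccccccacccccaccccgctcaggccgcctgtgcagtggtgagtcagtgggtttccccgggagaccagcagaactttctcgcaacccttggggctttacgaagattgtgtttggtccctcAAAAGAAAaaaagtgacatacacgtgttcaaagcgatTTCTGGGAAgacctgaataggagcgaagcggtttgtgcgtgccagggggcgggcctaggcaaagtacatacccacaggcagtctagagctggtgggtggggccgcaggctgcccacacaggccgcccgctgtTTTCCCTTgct
A GAS match lay in the Fas promoter, beginning 93 bases before the start, and in no other promoter of the 8. Such a match occurs in 8.30% of the 32851 promoters in the table. No promoter of the 8 genes held the response element core, which 3.44% of all promoters hold. The shorter core occurred in 4 of the 8 genes (Casp4, Casp8, Fas and Tnfsf10), against 23.9% of all promoters. Each of the 8 genes is counted once, though Casp4 has entries starting at 5308599 and at 5308610, while the shares over all are per promoter. In Tnfsf10 its matches began 53 and 30 bases before the start, and in Casp8 171 and 108 bases before it. The promoters of Mlkl and Bak1 held no match to any of the 3 motifs in this window. A match to these letters is a description of the sequence and shows no binding.

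All values below are log2 values relative to the median of the gene over the 12 arrays, so 1 unit is a 2-fold difference and levels cannot be compared between genes. Rounding in the deposited numbers showed not the level of a gene before centring but whether it was 8 or more on every array. All 15 measured red cell precursor markers reached that level, against 1 of 23 monocyte and macrophage markers, 0 of 14 B cell markers, 5 of 15 neutrophil markers and 0 of 13 T and NK cell markers. None of the 9 cell death genes did so on every array, while the rounding of all 9 fit a level of at least 4. Each thus lay between 4 and 8 on at least some arrays. The genotype labels could not be checked on Ifng itself, because its probe set differed by only -0.10 ± 0.09 (SE) in Ifng-/- against WT (limma, adjusted p = 0.632) and where it lies relative to the deleted part is not given in the sources used here. Cd70 was higher by 0.26 ± 0.12 in CD70TG than in WT (limma, adjusted p = 0.18) and by 0.39 ± 0.12 in CD70TG*Ifng-/- than in Ifng-/- (limma, adjusted p = 0.135), neither past the threshold. Genes of the higher level class shifted by a median of 0.19 in CD70TG against WT, while the other 17198 genes shifted by -0.04. The arrays farthest from the others of their group were Ifng-/- 2 and CD70TG 3, and results were recomputed without them.

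In CD70TG against WT, 5 of the 9 genes were higher and 0 were lower (limma, Benjamini-Hochberg adjustment over 19935 genes, threshold 0.05). They were the necroptosis sensor Zbp1, the necroptosis effector Mlkl, the apoptotic pore former Bak1, the death ligand Tnfsf10 and the initiator caspase Casp8. Over all genes 8.23% were called higher and 2.7% lower in the same comparison, and rises made up 75.3% of all calls (63.2% on quantile-normalized values and 65.2% with arrays centred within level classes). The median change of the 9 genes was 0.43, against -0.02 over all genes. In these 5 genes every CD70TG array lay above every WT array, a separation that 17.6% of all genes show. In a bulk sample fewer cells of a type and less RNA per cell cannot be told apart.

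Without Ifng (CD70TG*Ifng-/- against Ifng-/-), 0 of the 9 genes were higher and 1, Casp1, was lower, against 0.156% of all genes called higher and 2.35% called lower. Casp1 and Casp8 lay wholly below Ifng-/- values, as did 7.09% of all genes. The median change was -0.21 over the 9 genes and 0.04 over all genes. In Ifng-/- against WT, 0 of the 9 passed in either direction, and over all genes 0.00502% (1 gene, Pawr) were called, while 2759 genes had an unadjusted p under 0.05 and Casp8 was the 1 of the 9 that did. Casp8 was also the 1 of the 9 with every Ifng-/- array above every WT array, as in 9.43% of all genes. Loss of Ifng in transgenic mice (CD70TG*Ifng-/- against CD70TG) went with 7 of the 9 lower and 0 higher, against 0.988% of all genes called lower and 0.426% called higher. The same 7 did not overlap between the groups, as 8.27% of all genes do in that direction. The count was 4 without CD70TG 2, CD70TG 3, CD70TG*Ifng-/- 2 or CD70TG*Ifng-/- 3, where Casp4, Casp8 and Bak1 missed the threshold. The 2 that did not pass there with all arrays were Ripk3 and Fas. The differences in Ifng-/- against WT ran from -0.10 for Tnfsf10 to 0.28 for Casp8, with limma adjusted p between 0.301 and 0.971. CD70TG arrays enter both the comparison of CD70TG*Ifng-/- with CD70TG and that of CD70TG with WT, so the counts of these 2 comparisons are not independent of each other.

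The difference between the transgene effects (CD70TG against WT, minus CD70TG*Ifng-/- against Ifng-/-) was tested as an interaction. It passed for 5 of the 9 genes, all positive (Mlkl, Zbp1, Casp8, Casp1 and Tnfsf10), against 1.61% of all genes called positive and 0.281% called negative. Positive calls made up 85.1% of the calls over all genes, and 74% with arrays centred within level classes. Bak1 (0.61 ± 0.15, limma, adjusted p = 0.0576, which was 0.0475 without WT 3 and 0.0167 without CD70TG*Ifng-/- 1) and Casp4 (0.67 ± 0.21, limma, adjusted p = 0.111) did not pass. The number of the 9 that passed was 3 without CD70TG 3, alone or with Ifng-/- 2, and it fell to 2 when WT 1, CD70TG 2, CD70TG*Ifng-/- 2 or CD70TG*Ifng-/- 3 was left out. Of 23 monocyte and macrophage markers, 8 were called positive and 0 negative in the same test, with a median of 0.60, and their part in the interaction of the 9 genes was not tested.

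**Figure D1:**
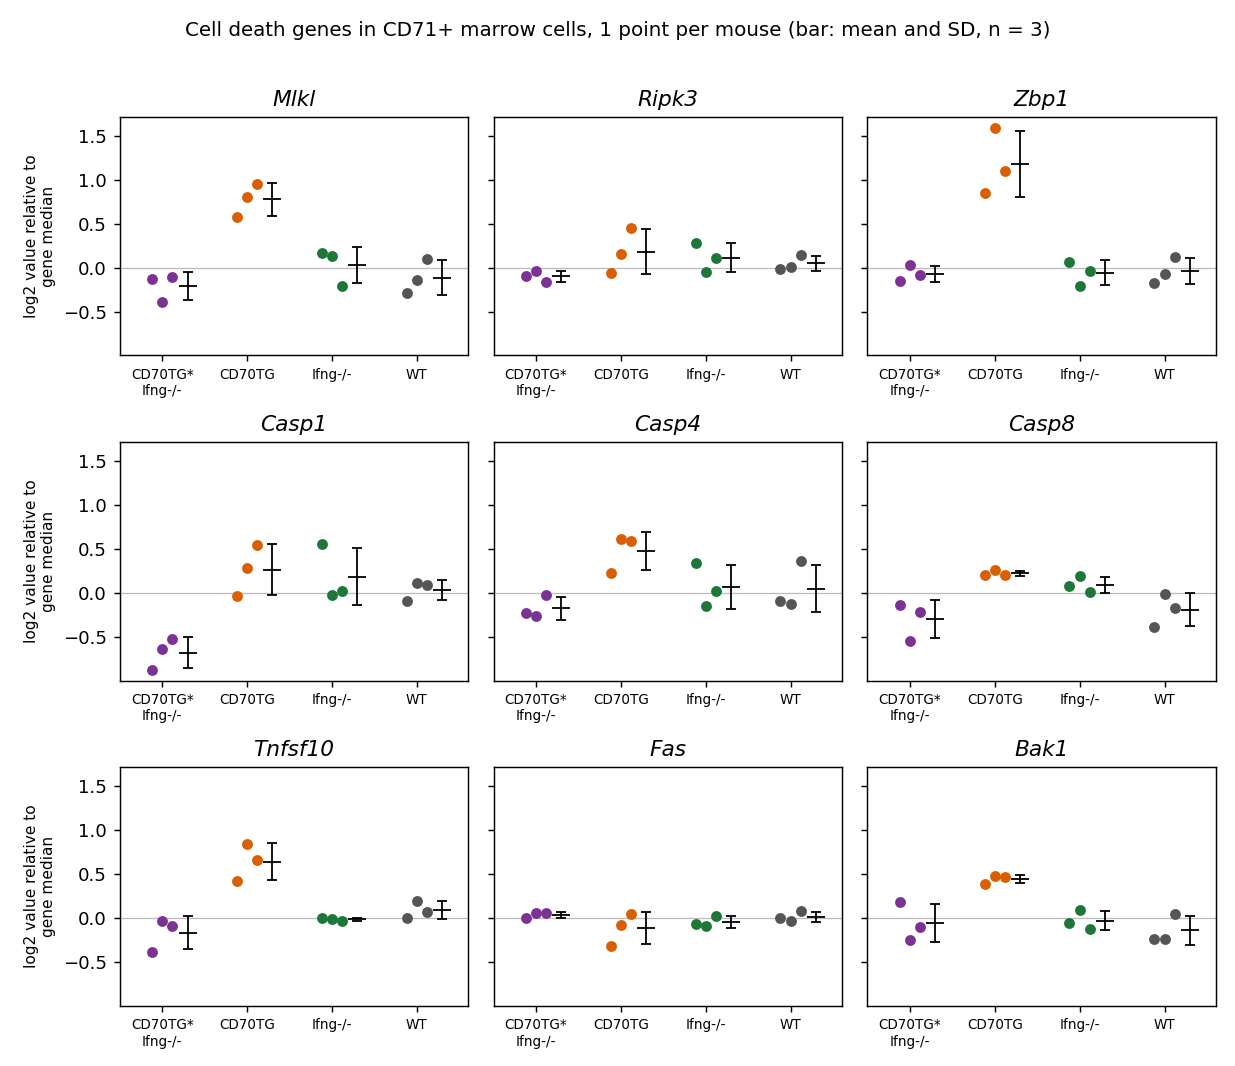
Log2 value relative to the gene's median over 12 arrays (vertical axis) for the 9 genes in CD70TG*Ifng-/-, CD70TG, Ifng-/- and WT mice, with 1 point per mouse and the mean with SD (n = 3) beside each group. The CD70TG points of Mlkl, Zbp1, Casp8, Tnfsf10 and Bak1 lie above all points of the other groups, and the CD70TG*Ifng-/- points of Casp1 lie below all others.

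The necroptosis genes Zbp1 and Mlkl rose in CD70TG and were near WT values in both groups without Ifng, while Ripk3 did not pass in any comparison. Values of Zbp1, which senses nucleic acids in the Z conformation and was the gene with the largest difference of the 9, were -0.15, 0.03 and -0.08 in CD70TG*Ifng-/- mice, 0.85, 1.59 and 1.10 in CD70TG mice, 0.07, -0.21 and -0.03 in Ifng-/- mice and -0.17, -0.07 and 0.12 in WT mice. The 3 CD70TG arrays lay above the other 9, which overlapped. The means were -0.07 ± 0.09 in CD70TG*Ifng-/-, 1.18 ± 0.38 in CD70TG, -0.06 ± 0.14 in Ifng-/- and -0.04 ± 0.15 in WT (SD, n = 3 each). Zbp1 RNA rose 2.33-fold in CD70TG over WT (log2 1.22 ± 0.15, 95% interval 0.90 to 1.54, limma, adjusted p = 0.000212). Without Ifng the transgene difference was -0.01 ± 0.15, with an interval of -0.33 to 0.31 (limma, adjusted p = 0.987). CD70TG*Ifng-/- mice had 2.37-fold less Zbp1 RNA than CD70TG mice (log2 -1.25 ± 0.15, limma, adjusted p = 0.000356). The interaction was 1.23 ± 0.21 (limma, adjusted p = 0.012).

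Mlkl, the pseudokinase that carries out necroptosis, had values of -0.13, -0.39 and -0.10 in CD70TG*Ifng-/- mice, 0.58, 0.80 and 0.95 in CD70TG mice, 0.17, 0.13 and -0.20 in Ifng-/- mice and -0.29, -0.14 and 0.10 in WT mice. Again the 3 CD70TG arrays lay above the other 9. The means were -0.21 ± 0.16 in CD70TG*Ifng-/-, 0.78 ± 0.19 in CD70TG, 0.03 ± 0.20 in Ifng-/- and -0.11 ± 0.20 in WT (SD, n = 3 each). The CD70TG level was 1.85-fold that of WT (log2 0.89 ± 0.13, interval 0.61 to 1.16, limma, adjusted p = 0.00104). Without Ifng the transgene difference was -0.24 ± 0.13 (interval -0.52 to 0.04, limma, adjusted p = 0.491). Mice of the CD70TG*Ifng-/- group had 1.98-fold less than CD70TG mice (log2 -0.99 ± 0.13, limma, adjusted p = 0.000782), and the interaction was 1.13 ± 0.18 (limma, adjusted p = 0.00955). Zbp1 and Mlkl differed between the transgene settings by a test of the difference itself.

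Ripk3, the kinase that links ZBP1 to MLKL, had values of -0.09, -0.04 and -0.16 in CD70TG*Ifng-/- mice, -0.06, 0.16 and 0.45 in CD70TG mice, 0.28, -0.05 and 0.11 in Ifng-/- mice and -0.01, 0.01 and 0.15 in WT mice. The CD70TG arrays spread over 0.52 and overlapped those of Ifng-/- and WT. The difference in CD70TG against WT was 0.13 ± 0.12 with an interval of -0.11 to 0.38 (limma, adjusted p = 0.497). In CD70TG*Ifng-/- against CD70TG it was -0.28 ± 0.12 (interval -0.53 to -0.04, limma, adjusted p = 0.363). It passed only when arrays were weighted (log2 -0.30, limma, adjusted p = 0.0109). That result rests largely on 1 array per group, as the weights were 4.37 for CD70TG 2 and 4.24 for CD70TG*Ifng-/- 3. The other arrays of these groups had weights of 0.482 to 0.852.

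In the inflammatory caspase genes Casp1 and Casp4 the CD70TG arrays were highest on average but overlapped other groups. Casp1, whose product cleaves gasdermin D and the precursors of interleukin-1 beta and interleukin-18, was lowest in CD70TG*Ifng-/-. Its values were -0.87, -0.64 and -0.52 in CD70TG*Ifng-/- mice, -0.03, 0.28 and 0.55 in CD70TG mice, 0.56, -0.02 and 0.02 in Ifng-/- mice and -0.09, 0.12 and 0.09 in WT mice. All 3 CD70TG*Ifng-/- arrays lay below the other 9, and the other groups overlapped. The CD70TG*Ifng-/- mean was -0.68 ± 0.18, against 0.27 ± 0.29 in CD70TG, 0.19 ± 0.32 in Ifng-/- and 0.04 ± 0.12 in WT (SD, n = 3 each). CD70TG*Ifng-/- mice had 1.82-fold less Casp1 RNA than Ifng-/- mice (log2 -0.86 ± 0.16, interval -1.20 to -0.52, limma, adjusted p = 0.00651) and 1.92-fold less than CD70TG mice (log2 -0.94 ± 0.16, limma, adjusted p = 0.00564). With Ifng intact the transgene difference was 0.23 ± 0.16 with an interval of -0.11 to 0.57 (limma, adjusted p = 0.386). The interaction was 1.09 ± 0.22 (limma, adjusted p = 0.029). It missed the threshold without WT 1 (adjusted p = 0.098), WT 3 (0.0528), CD70TG 2 (0.0733), CD70TG 3 (0.0523), CD70TG*Ifng-/- 2 (0.0779) or CD70TG*Ifng-/- 3 (0.059). The fall against Ifng-/- and that against CD70TG passed in each of these settings. Monocyte and macrophage markers were also lowest in CD70TG*Ifng-/-, with 20 of 23 called lower than in Ifng-/- and 5 lower than in CD70TG (1 after quantile normalization, 9 with only the groups compared and 14 with array weights), and their part in the Casp1 difference was not tested.

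Casp4 lies next to Casp1 on chromosome 9, and Casp12 follows it. Its product senses cytosolic lipopolysaccharide, and its values were -0.23, -0.26 and -0.02 in CD70TG*Ifng-/- mice, 0.23, 0.61 and 0.59 in CD70TG mice, 0.34, -0.15 and 0.02 in Ifng-/- mice and -0.09, -0.12 and 0.36 in WT mice. CD70TG arrays were the highest on average but overlapped WT, where WT 3 stood above WT 1 and WT 2. The CD70TG difference from WT was 0.43 ± 0.15 (interval 0.11 to 0.74, limma, adjusted p = 0.0829), and it passed without WT 3 (log2 0.58, limma, adjusted p = 0.0323) or Ifng-/- 1 (0.43, limma, adjusted p = 0.0461). Casp4 RNA of CD70TG*Ifng-/- mice was 1.56-fold below that of CD70TG mice (log2 -0.65 ± 0.15, limma, adjusted p = 0.0467), a call lost when CD70TG 2 (limma, adjusted p = 0.209), CD70TG 3 (0.172), CD70TG*Ifng-/- 1 (0.104), CD70TG*Ifng-/- 2 (0.227), CD70TG*Ifng-/- 3 (0.0957), WT 1 (0.0638), WT 2 (0.0534) or Ifng-/- 3 (0.0719) was left out. Against Ifng-/-, CD70TG*Ifng-/- differed by -0.24 ± 0.15 (limma, adjusted p = 0.55). Casp12, named here for its place beside Casp4 after its values were seen, differed by -0.08 ± 0.06 in CD70TG against WT (limma, adjusted p = 0.43).

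Of the death receptor genes, the ligand Tnfsf10 and the caspase Casp8 rose in CD70TG, and the receptor Fas did not pass in any comparison. Tnfsf10 encodes TRAIL, a ligand that triggers apoptosis through the receptor that Tnfrsf10b encodes in mice. Its values were -0.38, -0.03 and -0.09 in CD70TG*Ifng-/- mice, 0.42, 0.84 and 0.66 in CD70TG mice, 0.00, -0.01 and -0.03 in Ifng-/- mice and 0.00, 0.20 and 0.07 in WT mice. Every CD70TG array lay above every other array, and the 3 Ifng-/- arrays lay within 0.04 of each other. CD70TG mice exceeded WT 1.46-fold in Tnfsf10 RNA (log2 0.55 ± 0.11, interval 0.31 to 0.78, limma, adjusted p = 0.00687) and CD70TG*Ifng-/- mice fell 1.75-fold below CD70TG (log2 -0.80 ± 0.11, limma, adjusted p = 0.000991). Without Ifng the transgene difference was -0.15 ± 0.11 (interval -0.39 to 0.08, limma, adjusted p = 0.617). The interaction was 0.70 ± 0.15 (limma, adjusted p = 0.0388). It missed the threshold without WT 1 (adjusted p = 0.117), WT 3 (0.073), CD70TG 2 (0.0929), CD70TG 3 (0.0605), CD70TG*Ifng-/- 2 (0.0649), CD70TG*Ifng-/- 3 (0.0809) or any 1 of the Ifng-/- arrays (0.0547, 0.06 and 0.0666 for 1 to 3).

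Casp8 had values of -0.13, -0.54 and -0.21 in CD70TG*Ifng-/- mice, 0.20, 0.26 and 0.21 in CD70TG mice, 0.08, 0.19 and 0.01 in Ifng-/- mice and -0.38, -0.01 and -0.17 in WT mice. The 3 CD70TG arrays lay within 0.06 of each other and above the Ifng-/- arrays, which in turn lay above WT and CD70TG*Ifng-/-. Its rise in CD70TG over WT was 1.33-fold (log2 0.41 ± 0.11, interval 0.18 to 0.65, limma, adjusted p = 0.0282). That call was lost without WT 1 (log2 0.32, limma, adjusted p = 0.131), WT 3 (0.0659), CD70TG 1 (0.0766) or CD70TG 2 (0.0966). Loss of Ifng in transgenic mice went with 1.43-fold less Casp8 RNA (CD70TG*Ifng-/- against CD70TG, log2 -0.52 ± 0.11, limma, adjusted p = 0.0296), a call also lost without CD70TG 1 (adjusted p = 0.0631), CD70TG 2 (0.128), CD70TG 3 (0.0905), CD70TG*Ifng-/- 2 (0.155) or CD70TG*Ifng-/- 3 (0.083). Without Ifng the arrays of the transgenic and other mice did not overlap either, and the difference of -0.39 ± 0.11 (interval -0.62 to -0.15) did not pass (limma, adjusted p = 0.0994). In Ifng-/- against WT it was 0.28 ± 0.11 (interval 0.05 to 0.52, limma, adjusted p = 0.301). The interaction was 0.80 ± 0.15 (limma, adjusted p = 0.0221), and it missed the threshold without WT 1 (adjusted p = 0.0681), CD70TG 2 (0.061), CD70TG*Ifng-/- 2 (0.0534) or CD70TG*Ifng-/- 3 (0.0506).

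Fas, the receptor for Fas ligand, had values of 0.00, 0.06 and 0.06 in CD70TG*Ifng-/- mice, -0.31, -0.08 and 0.05 in CD70TG mice, -0.07, -0.09 and 0.03 in Ifng-/- mice and 0.00, -0.03 and 0.08 in WT mice. All 4 groups overlapped, and CD70TG 1 was the lowest array. The differences were -0.13 ± 0.09 in CD70TG against WT (interval -0.32 to 0.05, limma, adjusted p = 0.35) and 0.15 ± 0.09 in CD70TG*Ifng-/- against CD70TG (interval -0.03 to 0.34, limma, adjusted p = 0.553). A rise of Fas by more than 0.05 in CD70TG lay outside the first interval. Without Ifng the transgene difference was 0.08 ± 0.09 (interval -0.11 to 0.27, limma, adjusted p = 0.748). Partner genes of these members, named here for their role after their values were seen, did not pass either. Fasl, which encodes Fas ligand, differed by -0.08 ± 0.07 in CD70TG against WT (limma, adjusted p = 0.534) and Tnfrsf10b by -0.08 ± 0.08 (limma, adjusted p = 0.569). Fadd, the adaptor between FAS and caspase-8, differed by 0.25 ± 0.09 (limma, adjusted p = 0.11), and Cflar, which restrains caspase-8, by 0.06 ± 0.11 (limma, adjusted p = 0.774).

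Bak1, whose product permeabilises mitochondria in apoptosis, had values of 0.18, -0.25 and -0.10 in CD70TG*Ifng-/- mice, 0.39, 0.48 and 0.47 in CD70TG mice, -0.05, 0.09 and -0.12 in Ifng-/- mice and -0.23, -0.23 and 0.05 in WT mice. The CD70TG arrays lay within 0.09 of each other and above the other 9, which overlapped. Bak1 RNA in CD70TG was 1.5-fold that in WT (log2 0.58 ± 0.11, interval 0.35 to 0.82, limma, adjusted p = 0.0047). Without Ifng the difference was -0.03 ± 0.11 (interval -0.26 to 0.20, limma, adjusted p = 0.934). CD70TG*Ifng-/- mice had 1.42-fold less Bak1 RNA than CD70TG mice (log2 -0.50 ± 0.11, limma, adjusted p = 0.0332), a call lost without CD70TG 1 (adjusted p = 0.0611), CD70TG 2 (0.14), CD70TG 3 (0.112), CD70TG*Ifng-/- 2 (0.193) or CD70TG*Ifng-/- 3 (0.17). Its rise against WT passed in each of those settings, between log2 0.54 and 0.68 over the alternatives tried.

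**Figure D2:**
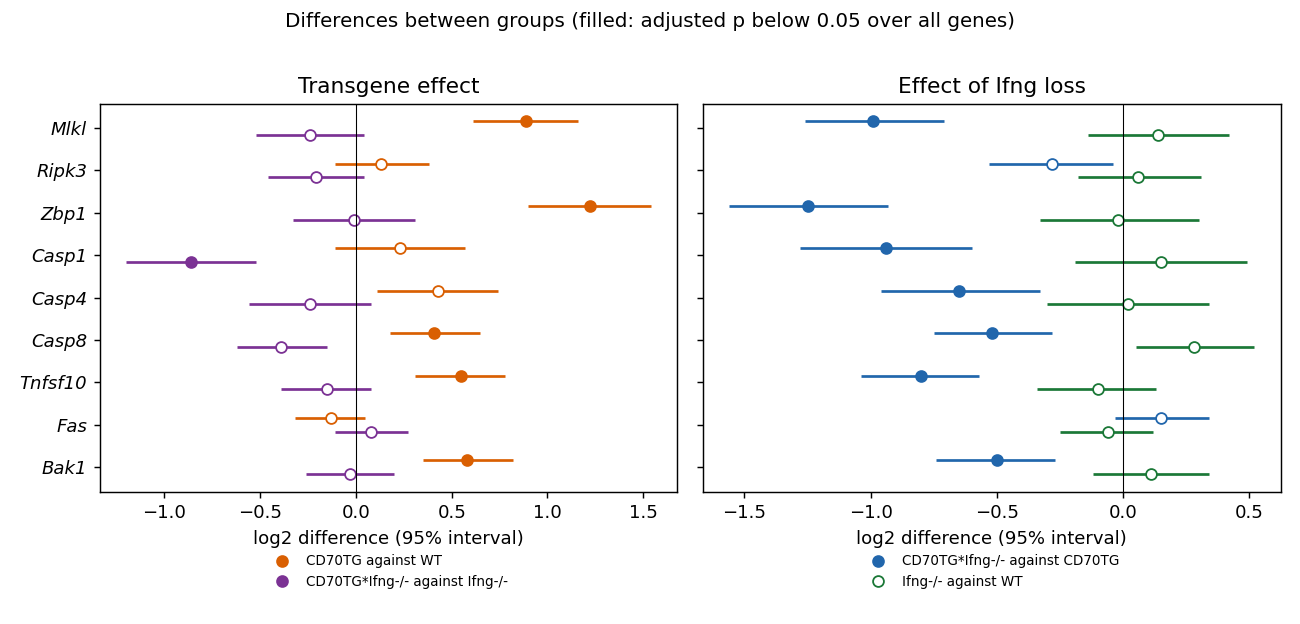
Log2 differences with 95% intervals (horizontal axis) for the 9 genes, with the transgene effect on the left (CD70TG against WT in orange, CD70TG*Ifng-/- against Ifng-/- in purple) and the effect of Ifng loss on the right (CD70TG*Ifng-/- against CD70TG in blue, Ifng-/- against WT in green). Filled points have a limma adjusted p under 0.05 over all genes: 5 orange, 1 purple, 7 blue and 0 green.

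The wider pathway was described with lists of genes by role, given here besides the 9. These lists too were chosen with earlier results of these data known. Over all genes, 8.23% were called higher and 2.7% lower in CD70TG against WT, and 0.156% and 2.35% in CD70TG*Ifng-/- against Ifng-/-. The BCL2 family, the death receptors and ligands and interferon-gamma signalling, each with 1 gene higher in CD70TG against WT, lie near that share. Of 13 other necroptosis genes, 6 were higher and 0 lower in CD70TG against WT, with a median change of 0.28 against -0.02 over all genes. The members with the smallest p were the kinase co-chaperone Cdc37 (0.49 ± 0.10, limma, adjusted p = 0.00731), Rnf31 (0.32 ± 0.07, adjusted p = 0.0159), the catalytic subunit of the linear ubiquitin ligase, and the mitochondrial phosphatase Pgam5 (0.34 ± 0.08, adjusted p = 0.0186). Cyld, which removes ubiquitin chains from RIPK1, was higher by 0.45 ± 0.12 (limma, adjusted p = 0.0338) and the chaperone Hsp90aa1 by 0.32 ± 0.09 (limma, adjusted p = 0.0388, or 0.15 with adjusted p = 0.37 when arrays were centred within level classes). The remaining 1 of the 6 was Sharpin. Without WT 1, CD70TG 1 or CD70TG 2 the count was 1 in each case. In Ifng-/- against WT 0 of the 13 passed, while 12 differences lay above 0 and 1 below. For 5 of the 13 every Ifng-/- array lay above every WT array, as in 9.43% of all genes. Among the 5 were Hsp90aa1 (0.34 ± 0.09, limma, adjusted p = 0.231), Cdc37 (0.33 ± 0.10, adjusted p = 0.251) and Pgam5 (0.26 ± 0.08, adjusted p = 0.255). The part of the WT arrays in these rises was not tested. Neither in CD70TG*Ifng-/- against Ifng-/- nor against CD70TG did any of the 13 pass (limma, count 0). The interaction also passed for 0 of the 13, with a median of 0.32 (counts of 0 to 4 over the alternatives). With all arrays a difference between the transgene settings was thus not shown for any of them. Ripk1 was not analysed here.

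Of 21 other genes of pyroptosis and inflammasomes, 3 were higher and 2 lower in CD70TG against WT, with a median of -0.05. Gsdmd, the pore former cleaved by caspase-1 and caspase-11, had values of -0.09, -0.03 and -0.17 in CD70TG*Ifng-/- mice, 0.34, 0.36 and 0.34 in CD70TG mice, 0.01, -0.07 and 0.02 in Ifng-/- mice and -0.01, -0.01 and 0.04 in WT mice. The CD70TG arrays lay within 0.02 of each other and above all others. Gsdmd was higher by 0.34 ± 0.07 in CD70TG than in WT (limma, adjusted p = 0.0063) and lower by 0.44 in CD70TG*Ifng-/- than in CD70TG (log2 -0.44 ± 0.07, limma, adjusted p = 0.00243). Naip2, which detects bacterial secretion-system proteins for the NLRC4 inflammasome, was higher by 0.60 ± 0.12 in CD70TG than in WT (limma, adjusted p = 0.00712). Irgm1, an interferon-inducible GTPase, was higher by 0.75 ± 0.15 (limma, adjusted p = 0.00625). Both were lower in CD70TG*Ifng-/- against CD70TG, Irgm1 by -1.14 ± 0.15 (limma, adjusted p = 0.000756) and Naip2 by -0.84 ± 0.12 (limma, adjusted p = 0.0015). The interaction passed for Irgm1 (1.29 ± 0.21, limma, adjusted p = 0.00955), Naip2 (1.01 ± 0.17, adjusted p = 0.0111) and Gsdmd (0.42 ± 0.09, adjusted p = 0.04). That of Gsdmd was lost in 12 of 19 alternatives, with adjusted p from 0.0567 to 0.109 (limma), among them each WT and each CD70TG array left out.

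Without Ifng (CD70TG*Ifng-/- against Ifng-/-) 1 of the 21 was higher and 3 were lower, a total that was 2 without Ifng-/- 1, Ifng-/- 3, CD70TG*Ifng-/- 2 or CD70TG*Ifng-/- 3. Il18 and Ninj1 were called lower with and without Ifng, Il18 under every alternative tried. Il18, the gene of the cytokine precursor that caspase-1 cleaves, had values of -0.69, -0.29 and -0.58 in CD70TG*Ifng-/- mice, -0.35, -0.44 and -0.44 in CD70TG mice, 0.66, 0.69 and 0.75 in Ifng-/- mice and 0.68, 0.99 and 0.29 in WT mice. Arrays of transgenic mice lay below those of the others in each setting. The fall was -1.07 ± 0.14 in CD70TG against WT (limma, adjusted p = 0.000394) and -1.22 ± 0.14 in CD70TG*Ifng-/- against Ifng-/- (limma, adjusted p = 9.46e-05). Ninj1, which ruptures the membrane late in lytic death, fell by 0.39 ± 0.10 (limma, adjusted p = 0.022) and fell by 0.48 ± 0.10 (limma, adjusted p = 0.0137) in the same comparisons. Ninj1 was not called in the first without WT 2, CD70TG 1 or CD70TG 2, nor in the second with only the groups compared or without Ifng-/- 1, Ifng-/- 3 or CD70TG*Ifng-/- 2. Il1b was lower (log2 -0.85 ± 0.17) in CD70TG*Ifng-/- against Ifng-/- (limma, adjusted p = 0.0105) and differed by -0.50 ± 0.17 in CD70TG against WT, where it did not pass (limma, adjusted p = 0.0705). The fall without Ifng was not called without CD70TG*Ifng-/- 3. Aim2, a sensor of cytosolic DNA, was the 1 gene of the list that was higher in CD70TG*Ifng-/- against Ifng-/- (0.50 ± 0.12, limma, adjusted p = 0.0461). That call was lost in 13 of 20 alternatives and the value was 1.2 after quantile normalization. Against CD70TG it was higher by 0.83 ± 0.12 (limma, adjusted p = 0.00188), or 1.52 after quantile normalization.

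Of 19 other BCL2 family genes, 1 was higher and 1 lower in CD70TG against WT, with a median of -0.04. The survival gene Bcl2l1 encodes BCL-XL, which is known to sustain maturing red cell precursors and to bind BAK. Its values were -0.15, 0.01 and -0.03 in CD70TG*Ifng-/- mice, -0.27, -0.37 and -0.51 in CD70TG mice, 0.12, 0.15 and -0.01 in Ifng-/- mice and 0.09, 0.17 and 0.07 in WT mice. All CD70TG arrays lay below the other 9. Bcl2l1 fell by 0.50 ± 0.08 in CD70TG against WT (limma, adjusted p = 0.00206), and 0 genes of this list passed in CD70TG*Ifng-/- against Ifng-/-. For Bcl2l1 the difference without Ifng was -0.14 ± 0.08 (limma, adjusted p = 0.514). Its interaction of -0.35 ± 0.11 did not pass (limma, adjusted p = 0.119). Nor did its difference of 0.33 ± 0.08 in CD70TG*Ifng-/- against CD70TG (limma, adjusted p = 0.069). Bid, the caspase-8 substrate that links death receptors to mitochondria, was higher by 0.35 ± 0.09 in CD70TG than in WT (limma, adjusted p = 0.0226) and lower (log2 -0.39 ± 0.09) in CD70TG*Ifng-/- than in CD70TG (limma, adjusted p = 0.0408). The rise of Bid was not called without WT 1, WT 2, CD70TG 1 or CD70TG 3, nor without CD70TG 3 and Ifng-/- 2 together. Its fall against CD70TG was lost in 13 of 20 alternatives, each of the 3 CD70TG arrays left out among them. The interaction of Bid was 0.48 ± 0.13 and did not pass (limma, adjusted p = 0.0654). Bax was not analysed here.

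Of 16 genes of the apoptosome and the executioner steps, none of them among the 9, 6 were higher and 0 lower in CD70TG against WT, with a median of 0.29. They included Aifm1 (0.51 ± 0.10, limma, adjusted p = 0.00566), a mitochondrial flavoprotein, Cycs (0.31 ± 0.07, adjusted p = 0.0131), which encodes cytochrome c, Birc6 (0.43 ± 0.10, adjusted p = 0.0133), an inhibitor of apoptosis, and Diablo (0.50 ± 0.12, adjusted p = 0.0148), an antagonist of such inhibitors. Apaf1, the scaffold of the apoptosome, was higher by 0.34 ± 0.09 (limma, adjusted p = 0.0228), and Parp1 was the remaining 1. The count was 3 with arrays centred within level classes, where Apaf1 (0.17, limma, adjusted p = 0.208) and Birc6 (0.26, limma, adjusted p = 0.0574) did not pass. It was 1 without CD70TG 1, 2 without WT 1 or CD70TG 2 and 3 without WT 3. This list had 6 genes of the higher level class, which as a whole shifted upward in this comparison. None of the 16 passed in CD70TG*Ifng-/- against Ifng-/-. The interaction passed for 1 of them, Diablo (0.74 ± 0.16, limma, adjusted p = 0.0389), a call lost in 9 of 19 alternatives. In Ifng-/- against WT 0 of the 16 passed, while 11 differences lay above 0 and 5 below. For 6 of the 16 every Ifng-/- array lay above every WT array, as in 9.43% of all genes. Among the 6 were Diablo (0.41 ± 0.12, limma, adjusted p = 0.245) and Birc6 (0.30 ± 0.10, adjusted p = 0.26).

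Of 14 other death receptor and ligand genes, only the adaptor Tradd was called in CD70TG against WT (0.23 ± 0.07, limma, adjusted p = 0.0483), and the count ranged from 0 to 5 over the alternatives. Without Ifng, Tnfrsf1b (-0.59 ± 0.12, adjusted p = 0.0137) and Tnfrsf21 (-0.51 ± 0.12, adjusted p = 0.0285), receptors of the tumour necrosis factor family, fell in CD70TG*Ifng-/- against Ifng-/- (limma). That count of 2 was 0 without Ifng-/- 1 or CD70TG*Ifng-/- 3, 1 without Ifng-/- 3, CD70TG*Ifng-/- 1 or CD70TG*Ifng-/- 2, and 4 without Ifng-/- 2. Of 11 interferon-gamma signalling genes, Irf1, a transcription factor downstream of the interferon-gamma receptor, was the 1 that passed in CD70TG against WT. Its values were -0.34, -0.02 and -0.30 in CD70TG*Ifng-/- mice, 0.49, 0.95 and 0.95 in CD70TG mice, 0.12, -0.23 and -0.11 in Ifng-/- mice and -0.06, -0.01 and 0.15 in WT mice, the average of its 2 probe sets. The 3 CD70TG arrays lay above the other 9. Irf1 was higher by 0.77 ± 0.13 in CD70TG than in WT (limma, adjusted p = 0.00284) and lower (log2 -1.01 ± 0.13) in CD70TG*Ifng-/- than in CD70TG (limma, adjusted p = 0.000756). The count of this list in CD70TG against WT was 3 without CD70TG 3 and 2 without Ifng-/- 1 or Ifng-/- 2. With only the probe set of the widest spread, the Irf1 differences were 1.42 and -2.02. The other Irf1 probe set must then have differed far less, so the averages describe neither probe set alone. Lower in CD70TG*Ifng-/- against Ifng-/- were 4 of the 11: the receptor chains Ifngr1 (-0.93 ± 0.19, limma, adjusted p = 0.0167) and Ifngr2 (-0.79 ± 0.19, adjusted p = 0.0352) and the factors Irf8 (-0.74 ± 0.15, adjusted p = 0.0136) and Irf9 (-0.51 ± 0.10, adjusted p = 0.0116). Without CD70TG*Ifng-/- 3 that count was 0, and it was 1 without Ifng-/- 1 or CD70TG*Ifng-/- 2 and 2 without CD70TG*Ifng-/- 1.

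**Figure D3:**
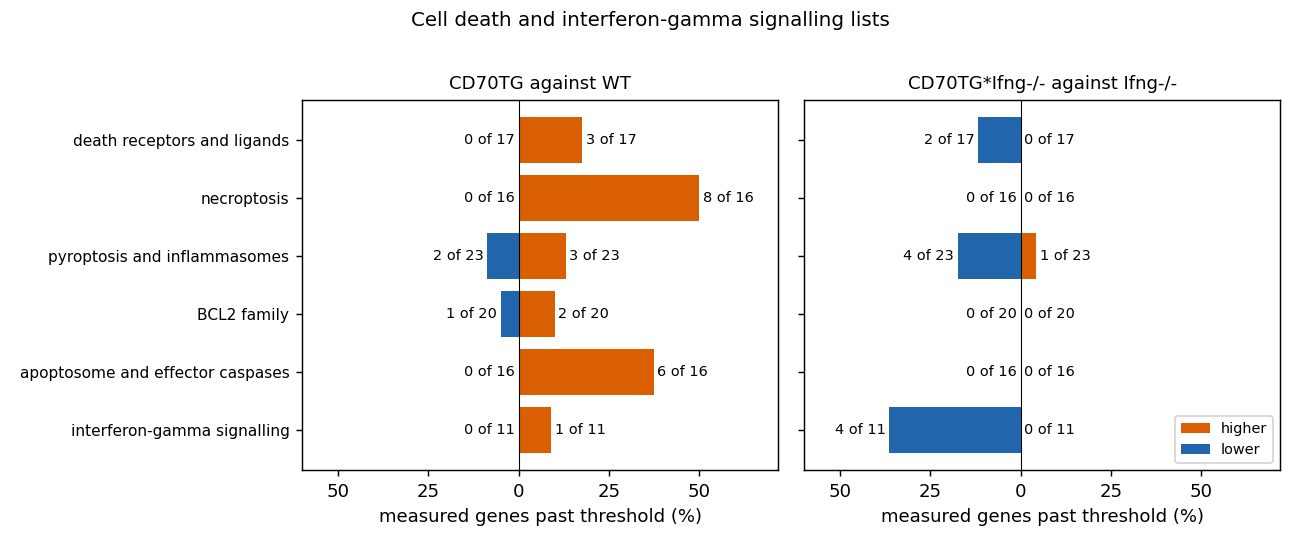
Share of the measured genes of each list (horizontal axis, percent) called higher (orange, right) or lower (blue, left) in CD70TG against WT and in CD70TG*Ifng-/- against Ifng-/-, the 9 genes included, with the counts beside the bars. Necroptosis genes, Zbp1 and Mlkl among them, had 8 of 16 higher and 0 lower in CD70TG against WT, and 0 of 16 in either direction without Ifng. Over all genes 8.23% were higher and 2.7% lower in the first comparison, and 0.156% and 2.35% in the second.

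Markers of other marrow cells differed between the same groups. The mean of 23 monocyte and macrophage markers ran from -1.12 to -1.11 over CD70TG*Ifng-/- mice, -0.78 to -0.45 over CD70TG mice, 0.75 to 1.30 over Ifng-/- mice and 0.59 to 1.09 over WT mice. Of these markers 18 were lower and 0 higher in CD70TG against WT, where 2.7% of all genes were lower. In CD70TG*Ifng-/- against Ifng-/- 20 were lower and 0 higher (2.35% of all genes lower). In CD70TG*Ifng-/- against CD70TG 5 were lower and 0 higher (0.988% of all genes lower). The interaction was positive for 8 and negative for 0 of them, a count that was 1 after quantile normalization, 2 without WT 1 or CD70TG*Ifng-/- 2, 4 without CD70TG*Ifng-/- 3 and 14 without WT 2, and 5 with a replicate block or without WT 3, CD70TG 2 or Ifng-/- 3. The marker Fcgr4, an Fc receptor gene, had the smallest p in the interaction (1.77 ± 0.23, limma, adjusted p = 0.0029), where 1.61% of all genes were called positive. It was the 1 marker of the list with a positive difference in CD70TG against WT (0.46 ± 0.16, limma, adjusted p = 0.0874). The macrophage genes Vcam1 (-2.78 ± 0.18, limma, adjusted p = 1.65e-06) and Mrc1 (-2.93 ± 0.19, limma, adjusted p = 1.65e-06) were among those that fell in CD70TG against WT. Vcam1 fell by 4.21 ± 0.18 in CD70TG*Ifng-/- against Ifng-/- (limma, adjusted p = 2.31e-08). Casp1, Il18, Il1b and Ninj1 are known to be expressed by macrophages, and the part of these cells in their falls was not tested.

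The mean of 15 neutrophil markers ranged from -0.49 to -0.14 in CD70TG*Ifng-/-, -0.23 to 0.12 in CD70TG, -0.59 to 1.71 in Ifng-/- and 0.83 to 0.96 in WT. Of these 15, 4 were lower and 1 higher in CD70TG against WT (2.7% and 8.23% of all genes). The total called ranged from 0 to 14 over the alternatives. In CD70TG*Ifng-/- against Ifng-/- 0 were called, with a range of 0 to 12. Ifng-/- 1 had the highest neutrophil mean of all 12 arrays, the highest monocyte and macrophage mean (1.30) and the highest Casp1 value, 0.56. Casp1 was -0.02 and 0.02 in the other Ifng-/- mice. Other arrays did not follow this order. Casp1 was 0.55 in CD70TG 3, where the neutrophil mean was 0.12, and -0.09 to 0.12 in WT, where that mean was 0.83 to 0.96. The part of neutrophils in the Casp1 values was not tested. Casp1 remained lower in CD70TG*Ifng-/- than in Ifng-/- under every alternative tried, leaving out Ifng-/- 1 among them. Of 14 B cell markers 11 were lower in CD70TG against WT and 2 in CD70TG*Ifng-/- against Ifng-/- (2.7% and 2.35% of all genes). The count of 2 ranged from 1 to 6 over the alternatives. It was 6 without Ifng-/- 2, and 1 without WT 1, WT 3, CD70TG 1, CD70TG 2, Ifng-/- 1, Ifng-/- 3 or any 1 of the CD70TG*Ifng-/- arrays. Among 13 T and NK cell markers 1, Cd4, was lower in each of those comparisons, and the mean of that list stayed within -0.13 to 0.19 on all arrays. The cytotoxic granule gene Nkg7 differed by 0.85 ± 0.27 in CD70TG against WT (limma, adjusted p = 0.0597). Of 15 red cell precursor markers 1, the haem synthesis gene Alas2, passed (-0.43 ± 0.08 in CD70TG against WT, limma, adjusted p = 0.00393), and the mean of that list lay within -0.16 to 0.07 on all arrays. All 15 are of the higher level class, and 4 were lower, with 0 higher, when arrays were centred within level classes.

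**Figure D4:**
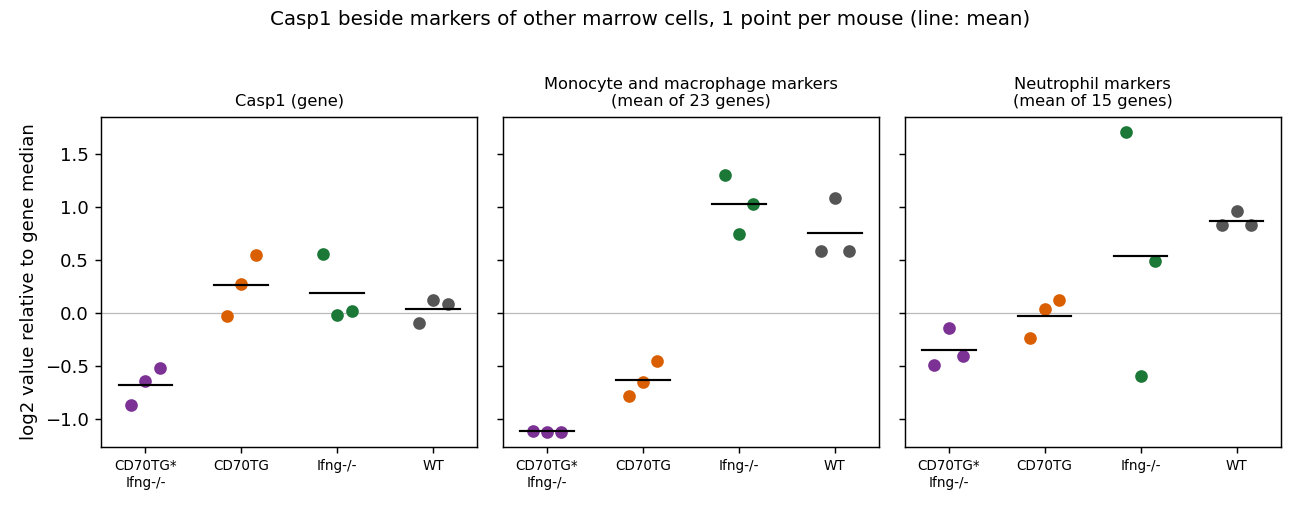
Log2 value relative to the gene median (vertical axis) of Casp1 and of the mean over 23 monocyte and macrophage markers and over 15 neutrophil markers in CD70TG*Ifng-/-, CD70TG, Ifng-/- and WT, with 1 point per mouse and a line at the group mean. Macrophage means are below 0 in both transgenic groups, and Casp1 is lowest in CD70TG*Ifng-/-.

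The genes closest to each called gene over the 12 arrays, by root mean square difference, were also read off. Closest to Mlkl were Psme1, a proteasome activator subunit, Gfpt1 and Trafd1, at 0.103, 0.11 and 0.124, where Mlkl's own root mean square is 0.435. The chemokine gene Cxcl10 (0.148), Ro60 (0.182) and Csf2rb2 (0.187) lay closest to Zbp1 (own value 0.618). For Tnfsf10 (0.354) they were Sp140 (0.112), the chemokine gene Ccl8 (0.123) and the guanylate-binding protein gene Gbp2b (0.134). Near Bak1 (0.266) lay 2610507B11Rik (0.0824), Pgm2 (0.0921) and Nufip1 (0.0925). For Casp8 (0.246) the closest were Sel1l (0.0853), Efr3a (0.0872) and Etnk1 (0.0953). The peptide transporter gene Tap2 (0.132) stood with Bex6 (0.123) and Mapkapk2 (0.153) beside Casp4 (0.314). Casp1 (0.424) had other neighbours, App (0.143), Glipr1 (0.164) and Tmem229b (0.169). Like Casp1, App and Glipr1 were lower in CD70TG*Ifng-/- than in Ifng-/-, by -1.08 ± 0.17 (limma, adjusted p = 0.002) and -1.0 ± 0.23 (limma, adjusted p = 0.0287). Tmem229b did not pass there (-0.54 ± 0.15, limma, adjusted p = 0.107). Against CD70TG, App (-0.96 ± 0.17, limma, adjusted p = 0.00985) and Tmem229b (-0.79 ± 0.15, adjusted p = 0.018) passed. Glipr1 did not (-0.81 ± 0.23, limma, adjusted p = 0.119). The neighbours of Mlkl and Zbp1 all rose in CD70TG against WT, by 0.84 to 1.15. Genes were picked as neighbours on the same arrays, so these changes are a description.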

How the data were processed

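RNA of CD71-enriched marrow cells from 12 mice was measured on a 1-colour whole-transcript array, 1 array per mouse. The deposited values are log2 values that the authors made with RMA (background correction, scaling between arrays and summary of probes), per the submitters' processing notes, which name no version. Each probe set was deposited with its median over the 12 arrays at 0, so absolute levels are not held. The log base and the direction were taken from what RMA gives. With no signal over background given, precision rests on the number of arrays.

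Of 28815 probe sets, 21780 carried 1 symbol, 1605 several and 5430 none in GEO's platform annotation, and an Entrez identifier tied 21689 of them to mouse gene records, which changed 0 symbols. Probe sets of a gene were averaged (998 of 19935 genes). Level classes came from the step that single-precision rounding leaves in the values, within 0.05 of a step, leaving out values under 0.001. A model with 4 group means was fitted to all arrays and all genes with limma 3.58.1 (lmFit and eBayes) in R 4.3.3, with statmod 1.5.0. Tests were two-sided, with Benjamini-Hochberg adjustment over 19935 genes and a threshold of 0.05. On simulated data of 19935 genes with 200 changed, CD70TG against WT recovered 75% of changes of 0.5 and 99% of changes of 1 in log2, with 10 false calls. The simulated noise was normal and independent between genes and arrays. Deviations that genes of an array share, as in the real data, were not simulated, so these figures need not hold there.

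The members and the 11 gene lists were chosen with earlier results of these data known. Named were the 9 members, Ifng and Cd70, and the 3 genes nearest to each called member. Candidates were also up to 5 called genes of each cell death or signalling list and contrast by smallest p. For each other cell type, candidates were 3 markers by smallest p in each transgene comparison. Not all candidates are printed. Fcgr4 was named by its p in the interaction, and Pawr as the gene called in Ifng-/- against WT. The rule left Sharpin and Parp1 as sixth in their lists. Alternatives were array medians subtracted, quantile normalization, centring within level classes, the probe set with the largest spread, array weights, the higher level class alone, only the groups compared, a replicate block and each array left out. The omission of CD70TG 3 and Ifng-/- 2 together was chosen after seeing the data.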

Additional observations from a re-analysis of the deposited data

Results flagged for a closer look

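For 5 of the 9 genes the transgene effect differed between mice with and without Ifng by the interaction test of limma, in which a positive value means a more positive effect with Ifng. The values were 1.13 for Mlkl (adjusted p = 0.00955), 1.23 for Zbp1 (adjusted p = 0.012), 1.09 for Casp1 (adjusted p = 0.029), 0.80 for Casp8 (adjusted p = 0.0221) and 0.70 for Tnfsf10 (adjusted p = 0.0388). For Mlkl, Zbp1 and Tnfsf10 the effect in CD70TG against WT was a rise and the effect without Ifng did not pass. For Casp1 it was a fall in CD70TG*Ifng-/- against Ifng-/-, with no call in CD70TG against WT. Casp8 was called higher in CD70TG against WT, and its lower value of -0.39 in CD70TG*Ifng-/- against Ifng-/- did not pass.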

How the results depend on the processing

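Of 18 calls of the 9 genes, 11 held under every alternative that gives them a value: Mlkl, Zbp1, Tnfsf10 and Bak1 in CD70TG against WT, Casp1 in CD70TG*Ifng-/- against Ifng-/-, Mlkl, Zbp1, Casp1 and Tnfsf10 in CD70TG*Ifng-/- against CD70TG, and Mlkl and Zbp1 in the interaction. Over 891 recomputed values of the 9 genes 828 kept their direction and side of the threshold, 53 lost a call, 10 gained one and 0 called values changed sign. Of 42 calls of other named cell death and interferon-gamma signalling genes, 16 held under every alternative and 26 were lost under at least 1. The analysis of the higher level class alone holds none of the 9 genes. Results with array weights rest largely on CD70TG 2 (weight 4.37) and CD70TG*Ifng-/- 3 (4.24), the next highest weight being 1.67 for Ifng-/- 3. The causes of these changes were not tested.

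In CD70TG against WT, 2179 genes and 5 of the 9 were called. Genes numbered 5337 with array weights, 1131 in the higher level class alone, 3686 without CD70TG 3 and Ifng-/- 2, and 853 (without WT 1) to 2721 (without Ifng-/- 2) with each array left out, and members 4 to 6. In CD70TG*Ifng-/- against Ifng-/-, 499 genes became 1439, 65 and 1048 under the same settings and 297 to 868 with each array left out, and 1 member became 2 (Casp1 and Casp8) after quantile normalization and 1 to 1 with each array left out. In Ifng-/- against WT, 1 gene became 5 after quantile normalization, 7 with array weights, 16 in the higher level class, 2 with only the groups compared, 4 without the 2 arrays and 1 to 42 with each array left out (42 without WT 2), and members stayed at 0. In CD70TG*Ifng-/- against CD70TG, 282 genes became 3519 with array weights, 153 in the higher level class and 136 to 365 with each array left out, and 7 members became 4 without the 2 arrays and 4 to 7 with each array left out (4 without CD70TG 2, CD70TG 3, CD70TG*Ifng-/- 2 or CD70TG*Ifng-/- 3). For the interaction, 377 genes became 2040 with array weights, 175 without the 2 arrays and 82 to 711 with each array left out, and 5 members became 3 without the 2 arrays and 2 to 6 with each array left out.

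Replicate numbers do not pair the mice: deviations of same-numbered arrays correlated at -0.4 to 0.31 and those of other arrays at -0.52 to 0.53, and 2 of 12 arrays correlated best with their own number. With a replicate block, 4 of the 9 genes were called in CD70TG*Ifng-/- against CD70TG and 3 in the interaction, where 128 genes passed, and Casp8 missed the threshold in CD70TG against WT (limma, adjusted p = 0.0526).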
